A study of Mus musculus with 3 samples.

Results

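Cxcl9, Cxcl10 and Cxcl11 are the ligands of the chemokine receptor Cxcr3, and they were chosen by gene symbol, as 3 of the 55357 features counted in each library. Single cells of mouse lung, wild type C57BL/6, were profiled by droplet 3′ RNA sequencing, in which each unique molecular identifier (UMI) stands for 1 captured transcript end. Each of the 3 libraries held the sorted cells of pooled mice, taken 24 h after instillation of 50 µL into the trachea. The control library came from mice given phosphate-buffered saline (PBS), the LPS library from mice given bacterial lipopolysaccharide (LPS, a trigger of acute lung injury) at 4 mg/kg, and the LPS + Reg3g library from mice given the same LPS together with 6 µg of the antimicrobial lectin Reg3g. All mice shared the strain, the instillation and the sort, which kept live CD45+ Ly6G- F4/80+ cells with CD11b or CD11c; no source used here gives their age. There was 1 library per group, so no test of a treatment was possible, and every interval below covers counting error only, at 95%. The comparisons ask how the ligands differed after LPS, and with Reg3g added to LPS.

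Cxcl9, Cxcl10 and, where its reading frame is intact, Cxcl11 are small secreted chemokines. They draw activated T cells, NK cells and other Cxcr3-bearing leukocytes into inflamed tissue. Interferon gamma, made by T and NK cells, is the classical inducer of Cxcl9. Cxcl10 and Cxcl11 also respond to type I interferon, and Cxcl10 responds to LPS itself through Tlr4, Irf3 and NF-kB. In the lung, macrophages, monocytes and dendritic cells are known sources of these chemokines.

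The genes lie in a row on the minus strand of chromosome 5 in the GENCODE M21 annotation of GRCm38, the assembly that the mm10 label of the submitters' processing notes stands for. Cxcl9 (ENSMUSG00000029417) spans bases 92321347 to 92328079 in 4 exons, and Cxcl10 (ENSMUSG00000034855) spans 92346638 to 92348889 in 4 exons. Cxcl11 (ENSMUSG00000060183) spans 92359544 to 92365485 and is annotated as a polymorphic pseudogene, the biotype for a gene whose reading frame is broken in the reference strain but intact in others. Cxcl10 and Cxcl11 both sit within the span of Art3, which runs on the opposite strand, and 133 bases of Cxcl10 exons overlap Art3 exons. No source used here says whether the counting used strand; Art3 had only 18, 15 and 28 UMIs over all kept cells of the PBS, LPS and LPS + Reg3g libraries, against 952, 16040 and 13911 for Cxcl10.

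The proximal promoters of Cxcl9 and Cxcl10 are shown because both hold letter matches to sites through which interferon and LPS signals are known to act. The sequences are the 250 bases before the annotated start, 5′ to 3′ on the minus strand, from RefSeq with the table's build GRCm38.p6, at chr5:92328080-92328329 for Cxcl9 and chr5:92348890-92349139 for Cxcl10. Capitals mark matches, on either strand, to GAAANNGAA (core of the interferon-stimulated response element) and GGGANNTNC (an NF-kB-like site). 2 of the 3 genes matched an entry in the promoter table, and Cxcl11 is named only.
Cxcl9: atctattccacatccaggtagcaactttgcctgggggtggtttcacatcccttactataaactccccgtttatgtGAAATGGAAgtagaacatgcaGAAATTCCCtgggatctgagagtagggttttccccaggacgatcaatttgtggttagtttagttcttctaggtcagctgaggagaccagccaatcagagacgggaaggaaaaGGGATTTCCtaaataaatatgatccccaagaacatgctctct
Cxcl10: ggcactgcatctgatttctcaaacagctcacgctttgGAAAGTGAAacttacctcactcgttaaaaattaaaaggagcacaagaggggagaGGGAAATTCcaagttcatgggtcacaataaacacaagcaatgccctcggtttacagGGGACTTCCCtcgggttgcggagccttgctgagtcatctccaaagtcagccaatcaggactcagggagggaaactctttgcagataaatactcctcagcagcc

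The response element core was found once in each promoter, as GAAATGGAA from 175 to 167 bases before the start of Cxcl9 and as GAAAGTGAA from 213 to 205 bases before the start of Cxcl10. NF-kB-like matches in Cxcl9 lay 154 to 146 bases (GAAATTCCC, minus strand) and 42 to 34 bases (GGGATTTCC) before the start. In Cxcl10 they lay 159 to 151 bases (GGGAAATTC) and 103 to 95 bases (GGGACTTCC) before it, and the latter overlaps 1 more match on the other strand, shifted by 1 base. The gamma-activated site TTCNNNGAA had no match in either window. Of all 32851 promoters of the table, over the same length, 7.13% held the response element core, 7.02% the gamma-activated site and 12.5% the NF-kB-like site, so each of these letter patterns is common and a match is a description only.

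After filtering, 7860 PBS, 13015 LPS and 9281 LPS + Reg3g cells were kept, with median depths of 5923.5, 4216 and 5459 UMIs per cell; pairs of libraries shared 28 to 37 barcodes. The sort was labelled macrophage-enriched. By their markers, 38.9% to 45.6% of cells were alveolar-macrophage-like (the resident macrophages of the air spaces) and 28.5% to 47.1% monocyte-like, and smaller numbers resembled interstitial macrophages, dendritic cells (cDC1, cDC2 and migratory), neutrophils, T or NK cells and B cells. Clusters that resembled doublets or were led by mitochondrial and ribosomal RNA stayed unnamed and held 1.46%, 1.84% and 2.65% of the PBS, LPS and LPS + Reg3g cells. The ligands played no part in the clustering. Cells of the PBS library and cells of the 2 LPS-treated libraries lay in different clusters of the same class: 93.8% of PBS alveolar-macrophage-like cells were in cluster 3 (led by Krt19 and Fabp1), whereas those after LPS were mainly in clusters 17 (Ereg, Tnf, Cxcl1), 18 (Car4, Lcn2) and 19 (Inhba, Fstl1). Likewise 98.7% of PBS classical-monocyte-like cells were in cluster 6, and those after LPS were mainly in clusters 1 (Arg1, Ccl2, Ccl7) and 7 (Vcan, Ly6c2). Ratios to PBS within a class therefore compare different clusters.

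Cxcl10 was far higher after LPS than in PBS in both main classes, and it had more UMIs than the other ligands in both in each library. Levels are given per 1000000 UMIs of the class (CPM). Alveolar-macrophage-like cells held Cxcl10 at 8.34 CPM in PBS, 203 CPM in LPS and 139 CPM in LPS + Reg3g. Both libraries from LPS-treated mice thus lay far above PBS, and the one with Reg3g lay below the one without. The log2 ratio of LPS to PBS was 4.61 (interval 4.42 to 4.80), or 24.4-fold. In monocyte-like cells, classical and nonclassical together, Cxcl10 stood at 29.8, 343 and 446 CPM in the same order, a log2 ratio of LPS to PBS of 3.52 (3.34 to 3.71), or 11.5-fold. Here the library with Reg3g was the highest. Read against all genes with at least 10 CPM in 1 of the compared libraries, 5.76% were at least 2-fold higher and 14% at least 2-fold lower after LPS in alveolar-macrophage-like cells, and 10.7% and 8.52% in monocyte-like cells. Both members that reached this minimum, Cxcl9 and Cxcl10, were at least 2-fold higher in each class, and Cxcl11 stayed under it. The median gene in alveolar-macrophage-like cells had a log2 ratio of -0.25, and scaling to the genes in common put Cxcl10 at 4.86 there.

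**Figure D1:**
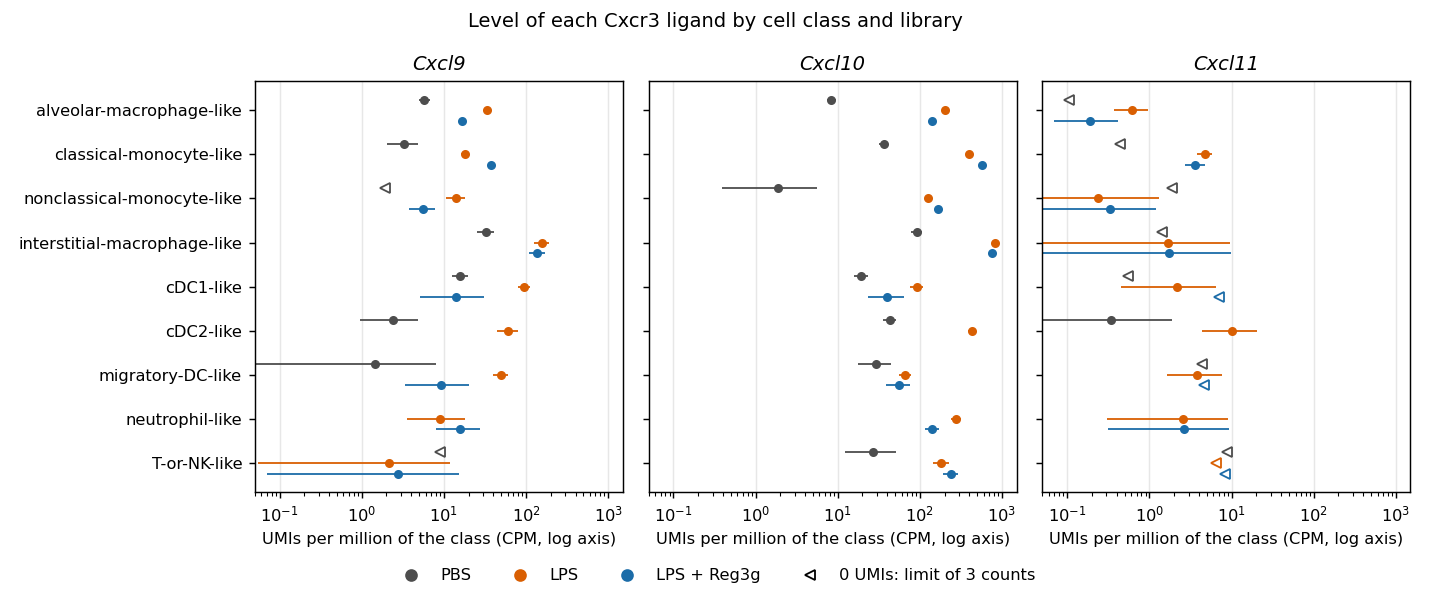
Level of Cxcl9, Cxcl10 and Cxcl11 (CPM of the class, log axis) in each class of at least 50 cells other than B-cell-like cells. Points are for PBS (grey), LPS (orange) and LPS + Reg3g (blue), with exact Poisson intervals as bars. Open triangles stand at the limit of 3 counts where there were 0 UMIs. The 66 PBS B-cell-like cells, not plotted, had 0 Cxcl10 UMIs. In the classes plotted, Cxcl10 ran from 1.90 CPM in PBS nonclassical-monocyte-like cells to 824 CPM in LPS interstitial-macrophage-like cells.

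The order of Cxcl10 levels was led in all 3 libraries by interstitial-macrophage-like cells, the macrophages of the lung tissue between the air spaces, at 91.2, 824 and 754 CPM in PBS, LPS and LPS + Reg3g. These were few cells (483, 154 and 122), and a single cell held 24.5% of their Cxcl10 UMIs in LPS, without which the level was 627 CPM. In LPS, cDC2-like cells (425 CPM) and classical-monocyte-like cells (391 CPM) came next, with overlapping intervals. Neutrophil-like cells (275 CPM), alveolar-macrophage-like cells (203 CPM) and T-or-NK-like cells (182 CPM) followed, the last pair with overlapping intervals. Nonclassical-monocyte-like cells stood at 127 CPM, above cDC1-like cells at 91.9 CPM and migratory-DC-like cells at 65.9 CPM, whose intervals overlapped. In PBS, nonclassical-monocyte-like cells had 3 Cxcl10 UMIs in 626 cells (1.90 CPM), and their log2 ratio of LPS to PBS was 6.06 (4.51 to 8.35). Migratory-DC-like cells, dendritic cells that carry antigen to lymph nodes, had the lowest Cxcl10 ratio of LPS to PBS of the 8 classes compared, 1.19 on the log2 scale (0.51 to 1.95).

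Cxcl10 was found in a minority of cells of most classes. At an equal depth of 2000 UMIs per cell, 0.735% of alveolar-macrophage-like cells had a Cxcl10 UMI in PBS, 17.01% in LPS and 13.8% in LPS + Reg3g; without thinning the shares were 1.79%, 27.2% and 26.8%. Thinning left out 44, 210 and 80 cells. Among monocyte-like cells the thinned shares were 2.21%, 20.9% and 22.3%, and the unthinned ones 3.39%, 26.4% and 28.7%. Interstitial-macrophage-like cells reached 7.005%, 35.8% and 42.6%. Lymphoid cells (T-or-NK-like and B-cell-like), which are not known as main sources of Cxcl10, had thinned shares of 3.30% (0.685% to 9.33%), 13.1% (6.72% to 22.2%) and 6.15% (1.70% to 15.0%), at median depths of 2183, 1900 and 2305 UMIs. In LPS that median lay under 2000 UMIs, so most lymphoid cells there were left out. Before thinning, and so at lower depth, 4 of 99, 20 of 153 and 10 of 92 T-or-NK-like cells had a Cxcl10 UMI. After thinning, the share in alveolar-macrophage-like cells lay within the lymphoid interval in each of the 3 libraries. Among the cells deep enough, a Cxcl10 UMI was thus not detectably more frequent in alveolar-macrophage-like than in lymphoid cells. In level, too, lymphoid cells held Cxcl10 at 18.8, 188 and 206 CPM, and the part of free RNA in these values was not tested. Cells with 10 or more Cxcl10 UMIs were 0.11%, 3.36% and 2.13% of alveolar-macrophage-like cells, and they held 49.3% of that class's Cxcl10 UMIs in LPS. Among T-or-NK-like cells there were 2 such cells in LPS and 2 in LPS + Reg3g, and the latter held 65 of the 86 UMIs.

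**Figure D2:**
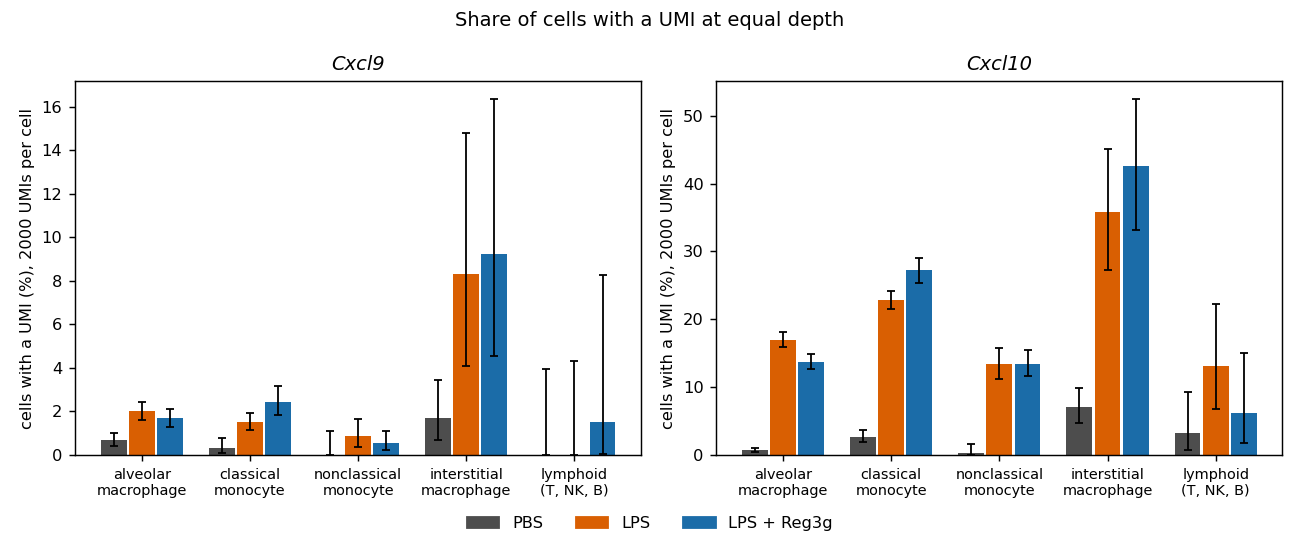
Share of cells (%) with a UMI of Cxcl9 or Cxcl10 after thinning each cell to 2000 UMIs, by class and library, with exact binomial intervals. In LPS, Cxcl10 was found in 35.8% of interstitial-macrophage-like, 22.8% of classical-monocyte-like and 13.1% of lymphoid cells, while no lymphoid cell in PBS or LPS kept a Cxcl9 UMI.

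Cxcl9 was higher in LPS than in PBS in both main classes, at levels set by few cells. Alveolar-macrophage-like cells held it at 5.80 CPM in PBS, 33.3 CPM in LPS and 16.6 CPM in LPS + Reg3g. Monocyte-like cells held it at 2.62, 17.4 and 27.4 CPM. PBS was lowest in both classes, and the order of the 2 LPS-treated libraries differed between them, as for Cxcl10. The log2 ratio of LPS to PBS was 2.52 (2.29 to 2.77) in alveolar-macrophage-like and 2.73 (2.12 to 3.42) in monocyte-like cells. The first rests on 1 PBS cell with 81 of the class's 164 Cxcl9 UMIs. That cell had a doublet score of 0.25, against a median of 0.06, and cDC1 markers summing to 1403 CPM, against a median of 235 CPM. Without the cell with most Cxcl9 UMIs in each library the log2 ratio was 3.40, and with the doublet rate doubled it was 3.71. In monocyte-like cells, thinning to equal depth gave 3.57, with 5 Cxcl9 UMIs left in PBS of the 22 before thinning.

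Interstitial-macrophage-like cells again had the highest Cxcl9 level in each library, at 32.4, 156 and 136 CPM in PBS, LPS and LPS + Reg3g. In LPS a single cell held 63 of the 92 UMIs, and without it the level was 50.3 CPM, below that of cDC1-like cells. The cDC1-like cells, dendritic cells specialised in presenting antigen to CD8 T cells, came second in PBS (15.8 CPM) and LPS (94.8 CPM). In LPS their interval overlapped that of cDC2-like cells (60.1 CPM), which overlapped that of migratory-DC-like cells (49.1 CPM). Those migratory cells had 1 Cxcl9 UMI in PBS and 102 in LPS, of which 3 cells held 77. At equal depth, cells with a Cxcl9 UMI made up 2.00% of alveolar-macrophage-like, 1.38% of monocyte-like, 6.34% of cDC1-like and 8.33% of interstitial-macrophage-like cells in LPS; the unthinned shares were 3.69%, 1.92%, 10.7% and 9.09%. Lymphoid cells had 0, 1 and 1 Cxcl9 UMIs in the 3 libraries. The count of 0 in 91 thinned PBS lymphoid cells gives a limit of 3.30%, at the 3 counts used for counts of 0 and not from an exact interval.

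Cells with 10 or more Cxcl9 UMIs were 28 of 5061 alveolar-macrophage-like cells in LPS, and they held 66.7% of the class's Cxcl9 UMIs. Their alveolar macrophage markers summed to a median of 14573 CPM, against 16338 CPM in the other cells of the class, and their median doublet score was 0.04, against 0.05. The cDC1 marker list had a median of 240 CPM in them and of 0 CPM in the others, the neutrophil list 117 and 0 CPM, and the interstitial macrophage list 130 and 140 CPM. Markers of T or NK cells and of B cells had medians of 0 CPM in both. The part of other cells' RNA in these values was not tested.

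Cxcl11 was sparse, with 1, 133 and 60 UMIs over all kept cells of the PBS, LPS and LPS + Reg3g libraries. The single PBS UMI was in a cDC2-like cell. Monocyte-like cells held 0, 90 and 50 of them, and alveolar-macrophage-like cells 0, 19 and 6. Against a limit of 3 counts over the class in PBS, Cxcl11 was at least 10.9-fold higher in LPS in monocyte-like cells and at least 5.75-fold higher in alveolar-macrophage-like cells. In LPS, classical-monocyte-like cells held 66.9% of Cxcl11 UMIs (58.2% to 74.8%) while making up 36.0% of the cells and 30.4% of all UMIs. In LPS + Reg3g they held 80.0% (67.7% to 89.2%) with 27.8% of the cells. The highest LPS level, 10.2 CPM in cDC2-like cells, came from 8 UMIs and overlapped that of classical-monocyte-like cells (4.71 CPM). Lymphoid cells had no Cxcl11 UMI in any library.

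The classes also differed in the mix of ligands. A 3′ library counts 1 end per transcript, so UMIs of 2 genes may be set beside each other without a length scale, although capture can differ between genes. For every 100 Cxcl10 UMIs in LPS there were 103 Cxcl9 UMIs in cDC1-like (80.1 to 133), 74.5 in migratory-DC-like (57.0 to 96.9), 18.9 in interstitial-macrophage-like (15.0 to 23.7) and 16.4 in alveolar-macrophage-like cells (15.3 to 17.5). The number was 4.66 in classical-monocyte-like cells (4.17 to 5.19). The interval thus includes 100 in cDC1-like cells and lies below it in the other classes named here. Few cells set some of these values. In migratory-DC-like cells the Cxcl9 UMIs were mostly those of 3 cells. Among cDC1-like cells, 3 held 60 of the 130 Cxcl9 UMIs and 4 held 56 of the 126 Cxcl10 UMIs. In interstitial-macrophage-like cells, 1 cell held 63 of the 92 Cxcl9 UMIs. The intervals do not cover such differences between cells. T-or-NK-like cells had 1.18 Cxcl9 UMIs per 100 of Cxcl10 (0.0294 to 6.73), an interval below that of alveolar-macrophage-like cells and overlapping that of classical-monocyte-like cells. Alveolar-macrophage-like cells went from 69.5 in PBS to 16.4 in LPS and 12.0 in LPS + Reg3g, the first of these with the cell of 81 UMIs included.

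**Figure D3:**
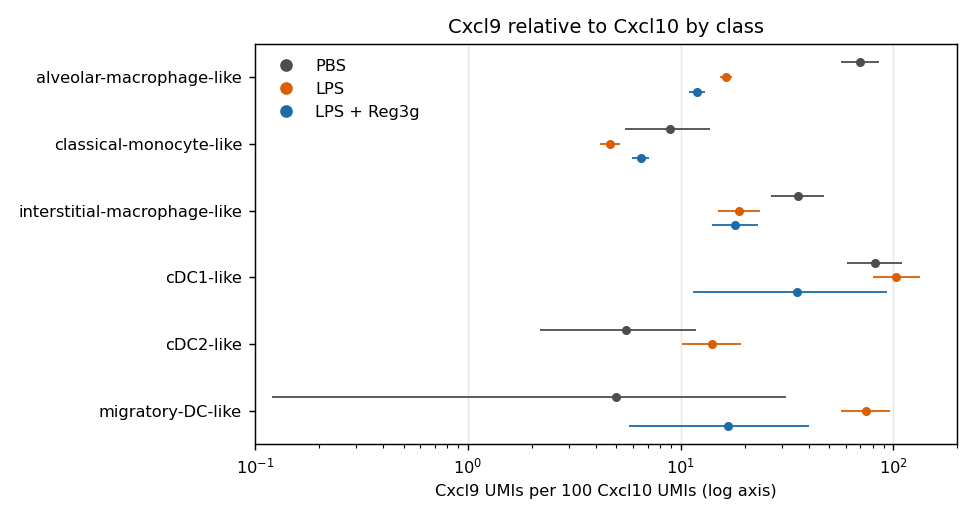
Cxcl9 UMIs per 100 Cxcl10 UMIs (log axis) by class and library, with exact intervals of the ratio as bars. Of the 6 classes plotted, in LPS the value ran from 4.66 in classical-monocyte-like cells to 103 in cDC1-like cells.

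In alveolar-macrophage-like and classical-monocyte-like cells after LPS, cells with a Cxcl9 UMI had one of Cxcl10 more often than cells without. At equal depth in LPS, 42.3% of alveolar-macrophage-like cells with a Cxcl9 UMI also had one of Cxcl10 (32.3% to 52.7%, 97 cells), against 16.5% of those without. In LPS + Reg3g the shares were 30.9% (20.2% to 43.3%, 68 cells) and 13.5%. Among classical-monocyte-like cells in LPS they were 35.1% (22.9% to 48.9%, 57 cells) and 22.6% (21.3% to 24.0%), with overlapping intervals. In LPS + Reg3g they were 55.4% (41.5% to 68.7%, 56 cells) and 26.5% (24.7% to 28.4%). The Cxcl11-positive cells stood nearly all among the Cxcl10-positive ones: 32 of 33 classical-monocyte-like cells with a Cxcl11 UMI had Cxcl10 in LPS (97.0%, 84.2% to 99.9%), against 22.2% of those without, and 15 of 16 did in LPS + Reg3g. In PBS, 1 of 24 alveolar-macrophage-like cells with Cxcl9 also had Cxcl10 (4.17%), against 0.711% of those without. Small classes were mixed: 8 of 18 cDC1-like cells with Cxcl9 had Cxcl10 in LPS (44.4%, against 4.89% of those without), but 0 of 10 migratory-DC-like cells did (against 7.29%), and in LPS + Reg3g 3 of 10 interstitial-macrophage-like cells did (30.0%, against 43.9%). Within cluster 7 in LPS the shares were 15.0% of 20 cells and 18.6%.

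Within the classes, the ligands were concentrated in particular clusters after LPS. Among classical-monocyte-like cells in LPS, cluster 1, led by Arg1, Ccl2 and Ccl7, held Cxcl10 at 639 CPM, against 261 CPM in cluster 7 and 229 CPM in the cycling cluster 13. Cxcl9 stood at 28.7, 15.0 and 4.16 CPM and Cxcl11 at 9.76, 2.38 and 0.35 CPM in these clusters. All 3 ligands were thus highest in cluster 1. Its 10 leading genes held 0 classical monocyte markers, as in cluster 13, against 3 in cluster 7, and its class name rests on mean marker level. Cluster 1 made up 34.7% of the class's LPS cells and held 4323 of its 7402 Cxcl10 UMIs. Nonclassical-monocyte-like cells of cluster 5 had Cxcl10 at 129 CPM and 1 Cxcl11 UMI. Among alveolar-macrophage-like cells the ligands differed in which cluster had the highest level. Cxcl10 was highest in cluster 17, led by Ereg, Tnf and Cxcl1 (507 CPM), and in the cycling cluster 14 (508 CPM), and lower in clusters 19 (173 CPM) and 18 (77.4 CPM). Cluster 3, with 83 LPS cells, had 52.4 CPM of Cxcl10 from 16 UMIs and 1 Cxcl9 UMI. Cxcl9 had another order, with 40.1 CPM in cluster 18, 39.0 CPM in cluster 19 and 5.65 CPM in cluster 17. Of clusters 17, 18 and 19, the one with the highest Cxcl10 level thus had the lowest Cxcl9 level, and 16 of the 19 Cxcl11 UMIs were in cluster 19.

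The receptor and the known inducers were sparse in the sorted cells. Cxcr3 had 234, 37 and 21 UMIs over all cells of the PBS, LPS and LPS + Reg3g libraries. It was found mainly in cDC1-like cells, at 37.9, 17.5 and 21.1 CPM (204, 24 and 9 UMIs), and in T-or-NK-like cells, at 26.6, 10.7 and 24.8 CPM (9, 5 and 9 UMIs). Interstitial-macrophage-like cells had 14, 3 and 0 Cxcr3 UMIs, at 6.58 CPM in PBS and 5.09 CPM in LPS. Alveolar-macrophage-like cells had 1, 0 and 0. Ifng, the gene of interferon gamma, had 14, 32 and 25 UMIs, all but 2 of them in T-or-NK-like cells, whose levels of 41.4, 66.3 and 66.2 CPM had overlapping intervals. Ifnb1, the gene of interferon beta, had 1, 5 and 4 UMIs in all. Dpp4, the surface peptidase that trims and inactivates Cxcr3 ligands, was lower after LPS in monocyte-like cells, at 27.8, 6.65 and 7.77 CPM, and stood at 111, 99.2 and 117 CPM in cDC1-like cells. Anpep, another surface peptidase, was higher after LPS in alveolar-macrophage-like cells, at 0.53 CPM in PBS and 42.9 CPM in LPS.

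Interferon-responsive genes were mostly higher after LPS in alveolar-macrophage-like cells, and mixed in monocyte-like cells. Of 16 genes that respond mainly to type I interferon, 9 reached 10 CPM in alveolar-macrophage-like cells. All 9 were at least 2-fold higher in LPS than in PBS, beside 5.76% of all genes, with a median log2 ratio of 3.98, beside -0.25. They included Irf7, which amplifies the type I response (2.33 and 56.9 CPM), the antiviral enzyme Rsad2 (0.88 and 19.5 CPM) and the oligoadenylate synthetase-like genes Oasl1 and Oasl2 (log2 ratios of 4.14 and 3.99). Of 15 genes weighted to interferon gamma, 7 were measured in the same cells and 5 were at least 2-fold higher, beside the same 5.76%. Among the 5 were the guanylate-binding proteins Gbp2 (16.8 and 167 CPM), Gbp5 and Gbp3. In monocyte-like cells all 16 type I genes were measured, 3 were past 2-fold higher and 2 past 2-fold lower, counts near the 10.7% and 8.52% of all genes, and their median was -0.08, beside 0.02. Isg15, a ubiquitin-like modifier, stood at 109 and 245 CPM there, and Cmpk2 at 24.6 and 9.41 CPM. Of the interferon gamma genes 1 of 9 was at least 2-fold higher, the checkpoint ligand Cd274 (25.2 and 99.6 CPM), and 3 at least 2-fold lower: Ciita, the master regulator of MHC class II (23.8 and 3.07 CPM), and the class II genes Cd74 and H2-Ab1. The difference between the classes was not tested.

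Other chemokines and the neighbouring genes give 2 more points of reference. Of 10 other chemokines measured in alveolar-macrophage-like cells, 9 were at least 2-fold higher in LPS than in PBS and 1 lower, beside 5.76% and 14% of all genes, with a median log2 ratio of 3.87, beside -0.25. Ccl5, which attracts T cells and monocytes, had the largest log2 ratio among them, 9.87 (1.63 and 1523 CPM), and the neutrophil attractant Cxcl1 had 5.73. In monocyte-like cells 8 of 11 were at least 2-fold higher, beside 10.7% of all genes, and their median was 3.64, beside 0.02. Of the genes beside the ligands, 4 of 6 were measured in each class and none was past 2-fold in either direction in either comparison: Naaa, an acid amidase, Sdad1, Nup54, a nuclear pore gene, and Scarb2, a lysosomal membrane protein. Naaa came closest, with a log2 ratio of LPS to PBS of -0.98 in monocyte-like cells. For LPS + Reg3g against LPS, 0.0279% of all genes were past 2-fold higher and 0.0698% lower in alveolar-macrophage-like cells. In monocyte-like cells these shares were 0.0813% and 0.0677%, and for LPS against PBS 10.7% and 8.52%. With such shares, 4 genes are too few for a count of 0 to set them apart from other genes.

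**Figure D4:**
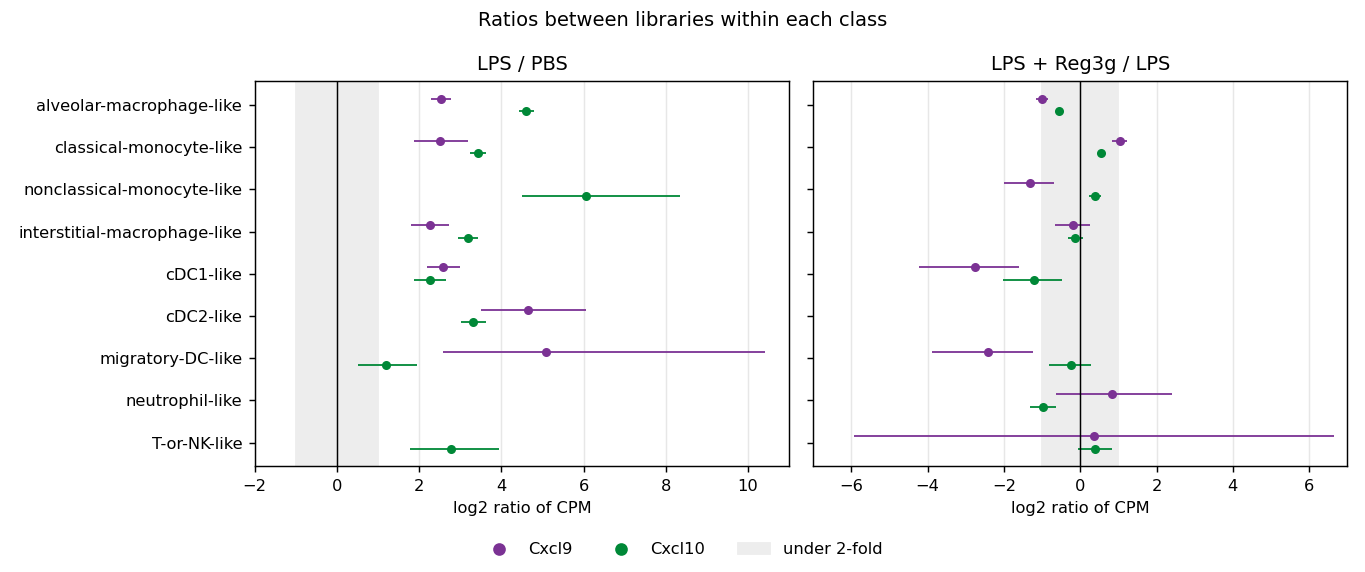
Log2 ratios of Cxcl9 (purple) and Cxcl10 (green) by class for LPS over PBS and for LPS + Reg3g over LPS, with exact intervals, and the range under 2-fold in grey. The left panel shows ratios above 0 in each class plotted, while in the right panel Cxcl10 stood at -0.55 in alveolar-macrophage-like and 0.55 in classical-monocyte-like cells.

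With Reg3g added to LPS, the ligands were lower in alveolar-macrophage-like cells and Cxcl9 and Cxcl10 were higher in classical-monocyte-like cells. In alveolar-macrophage-like cells the log2 ratio of LPS + Reg3g to LPS was -1.01 for Cxcl9 (-1.16 to -0.86), -0.55 for Cxcl10 (-0.61 to -0.50) and -1.70 for Cxcl11 (-3.31 to -0.31, from 6 and 19 UMIs). Of the 7164 genes tested in that class, 0.0279% were past 2-fold higher and 0.0698% past 2-fold lower, and Cxcl9 was among the latter, at 2.01-fold. That call lies at the threshold and was lost at resolution 2 (-0.99), with cells weighted equally (-0.89), thinned to equal depth (-0.82) and over all cells (-0.59). In monocyte-like cells the ratios were 0.65 for Cxcl9 (0.46 to 0.84), 0.38 for Cxcl10 (0.34 to 0.42) and -0.58 for Cxcl11 (-1.10 to -0.06), none past 2-fold. Among all genes measured in those cells 0.0813% were at least 2-fold higher and 0.0677% lower. Classical-monocyte-like cells alone had 18.2 and 37.3 CPM of Cxcl9 and 391 and 572 CPM of Cxcl10, log2 ratios of 1.03 (0.83 to 1.23) and 0.55 (0.50 to 0.59). Their Cxcl11 ratio was -0.37 (-0.91 to 0.15), from 89 UMIs in LPS and 48 in LPS + Reg3g, an interval that includes 0. Nonclassical-monocyte-like cells had a Cxcl9 ratio of -1.33, from 59 and 33 UMIs, and without the highest cell of each library the levels were 10.2 and 2.19 CPM. Their Cxcl10 ratio was 0.39 (0.24 to 0.55). They made up 11.1% of cells in LPS and 17.7% in LPS + Reg3g, so the pooled monocyte-like ratios compare different mixes of the 2 classes.

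At equal depth, classical-monocyte-like cells with Cxcl10 were a larger share of the class with Reg3g. Before thinning, so were those with many UMIs of it. At equal depth, Cxcl10 was found in 22.8% of classical-monocyte-like cells in LPS (21.5% to 24.2%) and 27.2% in LPS + Reg3g (25.4% to 29.1%). Thinning left out 906 of 4685 cells in LPS and 282 of 2577 in LPS + Reg3g, and the unthinned shares were 30.0% and 36.6%. Before thinning, cells with 10 or more Cxcl10 UMIs were 4.03% and 6.44% of the class, and they held 57.9% and 70.6% of its Cxcl10 UMIs. This cutoff is not at equal depth, and deeper cells pass it more easily. Cells with 10 or more of Cxcl9 were 6 of 4685 and 17 of 2577, with 24.9% (86 of 345) and 63.9% (315 of 493) of the UMIs. The Cxcl9 level of the class with Reg3g thus came mostly from 17 cells. The share of cells with any Cxcl9 UMI at equal depth was 1.51% (1.14% to 1.95%) and 2.44% (1.85% to 3.16%), with overlapping intervals. The 6 in LPS had a median doublet score of 0.13, against 0.06 in the other cells, and cDC1 markers at 956 CPM, against 192 CPM; the part of doublets was not tested. A weight of 1 for each cell gave log2 ratios for monocyte-like cells of 0.21 for Cxcl10 and 0.20 for Cxcl9. The median depth of the class was 3472 UMIs in LPS and 4624 in LPS + Reg3g; the ratios on thinned monocyte-like cells were 0.28 and 0.86.

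Within alveolar-macrophage-like cells the Cxcl10 difference was uneven across clusters. In cluster 17 Cxcl10 stood at 507 CPM in LPS and 199 CPM in LPS + Reg3g, a log2 ratio of -1.35 (-1.44 to -1.25), and in the cycling cluster 14 at 508 and 217 CPM (-1.22). Cluster 19 had 173 and 139 CPM (-0.31, -0.39 to -0.23). In cluster 18 it was slightly higher with Reg3g, at 77.4 and 86.9 CPM (0.17, 0.02 to 0.32). The share of cluster 17 cells with Cxcl10 at equal depth was 32.6% (29.5% to 35.8%) in LPS and 21.5% (19.05% to 24.1%) in LPS + Reg3g. Cxcl9 differed in other clusters: it stood at 40.1 and 16.8 CPM in cluster 18 and at 39.0 and 23.0 CPM in cluster 19, while cluster 17 had 5.65 and 4.39 CPM with overlapping intervals. The 28 and 16 cells of the class with 10 or more Cxcl9 UMIs held 694 and 282 of 1040 and 529 UMIs, and the share of cells with any, 2.00% and 1.68% at equal depth, had overlapping intervals.

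**Figure D5:**
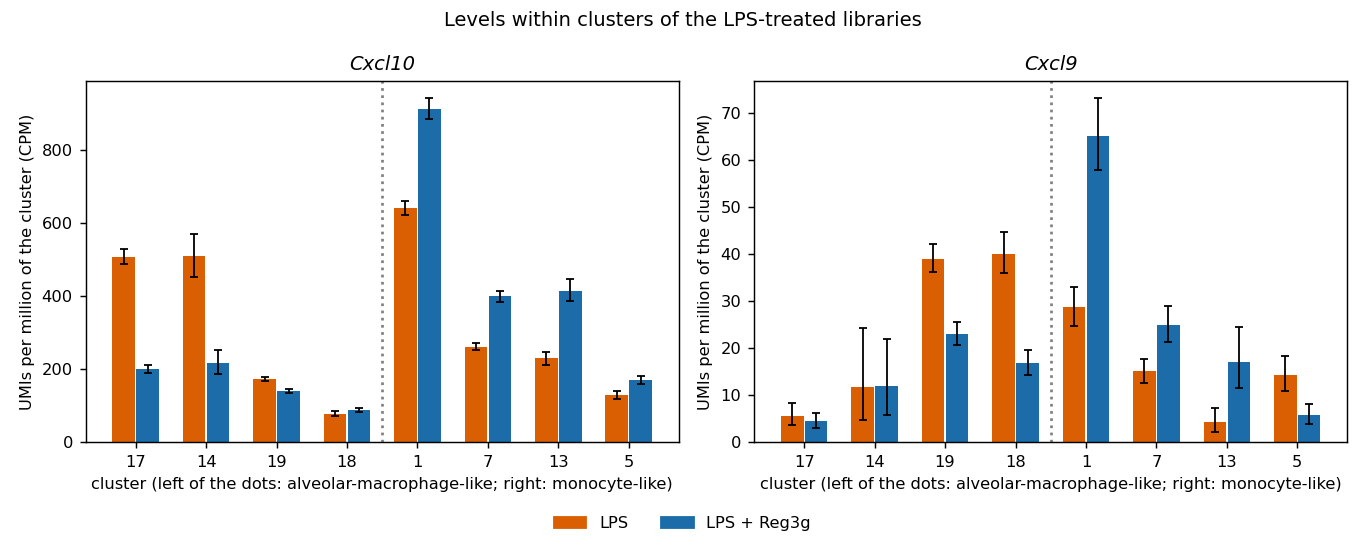
Cxcl10 and Cxcl9 (CPM of the cluster) in the alveolar-macrophage-like (17, 14, 19, 18) and monocyte-like (1, 7, 13, 5) clusters, with orange bars for LPS, blue bars for LPS + Reg3g, and exact Poisson intervals. Cxcl10 went from 507 to 199 CPM in cluster 17 and from 639 to 912 CPM in cluster 1.

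In the monocyte-like clusters the Cxcl10 level was higher with Reg3g in each of the 4 main ones. It stood at 639 and 912 CPM in cluster 1, 261 and 398 CPM in cluster 7, 229 and 414 CPM in cluster 13 and 129 and 170 CPM in cluster 5. Cxcl9 was higher in clusters 1, 7 and 13 and lower in cluster 5, at 28.7 and 65.2 CPM in the first. Cxcl11 in cluster 1 had 9.76 and 7.67 CPM, with overlapping intervals. The cDC1-like cells had lower Cxcl9, at 94.8 and 14.05 CPM, and lower Cxcl10, at 91.9 and 39.8 CPM, but only 67 such cells were found with Reg3g, holding 6 Cxcl9 UMIs. Interstitial-macrophage-like cells had ratios of -0.20 for Cxcl9 (-0.65 to 0.25) and -0.13 for Cxcl10 (-0.32 to 0.06), whose intervals include 0. Over all cells together the log2 ratio was -0.06 for Cxcl10, -0.59 for Cxcl9 and -0.999 for Cxcl11.

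The interferon lists showed smaller differences with Reg3g. In alveolar-macrophage-like cells all 7 measured interferon gamma genes had log2 ratios below 0, with a median of -0.34, and 8 of 9 type I genes did, with a median of -0.19, beside 0.03 for all genes; none was past 2-fold. Gbp2 stood at 167 and 124 CPM and Isg15 at 110 and 84.4 CPM. In monocyte-like cells 4 of 8 interferon gamma genes were above 0 and 4 below, and of 15 type I genes 8 were above and 7 below. Their medians were 0.08 and 0.10, beside 0.04 for all genes. The share of all genes below 0 was not counted in either class. Gbp5 was at 18.8 and 29.4 CPM there. Among other chemokines, Cxcl13, a B cell attractant, was past 2-fold lower in monocyte-like cells (98.8 and 42.1 CPM), and in alveolar-macrophage-like cells none of 10 was past 2-fold, with Ccl17, a ligand of Ccr4, at 1017 and 601 CPM. The LPS library enters the ratios to PBS and the ratios of LPS + Reg3g to LPS alike, so no relation between them is given.

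Likeness to each ligand in log2(CPM + 1) was ranked across 26 pairs of class and library with at least 50 cells. The ranking covered 5654 genes with at least 50 CPM in at least 1 pair, without predicted genes (Gm and Rik symbols). Of these, Bst2, an interferon-induced membrane protein, was most like Cxcl10 (Pearson's r 0.91). Next were the proteasome subunit genes Psmb2 (0.90), Psmb6 (0.86) and Psmc3 (0.86), and the metalloprotease Mmp14 (0.89). The genes most like Cxcl9 were Ndufc2, Cltb, Stub1, Clta and Dcxr (0.76 to 0.80), and for Cxcl11 they were Tspo, Ifitm1, Ifit1, Elob and Nedd8 (0.64 to 0.70). Cxcl9 and Cxcl10 had an r of 0.70 with each other. The points share libraries, depth and free RNA, and the values describe these pairs only.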

How the data were processed

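The deposited files hold UMI counts per gene and cell barcode, made by the authors with Cell Ranger 9.0.1 on mm10, per the submitters' processing notes, where bcl2fastq 5.0.1 and Seurat 4.4.0 are listed too; no source used here names the annotation or strand setting of the counting. The libraries held 8475 (PBS), 15015 (LPS) and 10213 (LPS + Reg3g) barcodes with 52354207, 70474636 and 60942042 UMIs, and 52081 of the 55357 features matched GENCODE M21 by identifier.

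A cell was kept if it had 500 or more genes, 1000 or more UMIs and a mitochondrial share of no more than 15%, and the highest Scrublet scores were removed as doublets at 0.4% per 1000 barcodes (272, 865 and 388 cells). Counts were scaled to 10000 per cell and clustered with scanpy 1.11.5 (2000 variable genes, 30 principal components, 15 neighbours, Leiden resolution 1), with the ligands and all genes of the lists left out of the variable genes. A cluster took the class whose markers had the highest mean level; this scoring, and the reasons for leaving clusters unnamed, were set after the clusters were seen. UMIs were then summed per class and library. Counts of cells with 10 or more UMIs of a ligand were made before thinning. Ratios have exact conditional binomial intervals, levels exact Poisson ones and shares exact Clopper-Pearson ones, all at 95%; they cover counting error only, and since few cells hold many of the UMIs they are too narrow for differences between cells. A difference counts as called past 2-fold; only genes that reached 10 CPM in one of both libraries were tested. The scripts were tested on simulated data.

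The members, the gene lists and the rule for named genes (from each list, up to 4 genes with the largest log2 ratio by class and comparison, and the 5 genes most like each member) were chosen with earlier results of these data known. The alternatives tried were the cell filter, doublet removal, resolution, clustering each library alone or with the listed genes kept, 2 other scalings, equal weights per cell, thinning, and all cells together; leaving out the cell with most UMIs was added after seeing the data.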

Additional observations from a re-analysis of the deposited data

Results flagged for a closer look

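Cxcl9 and Cxcl10 had ratios of LPS + Reg3g to LPS of opposite sign in the 2 main classes, with intervals that exclude 0 on both sides. For Cxcl9 the log2 ratio was -1.01 in alveolar-macrophage-like and 0.65 in monocyte-like cells. For Cxcl10 it was -0.55 and 0.38. With 1 library per group the difference between the classes was not tested.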

How the results depend on the processing

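No paired analysis was possible because each group had 1 library, and no library could be left out. Across 10 log2 ratios and 13 or 14 alternatives each, 108 values lay within the counting interval of the reported one, 27 lay outside it and none changed sign. The interval is wide for sparse genes: the ratio of Cxcl11 in alveolar-macrophage-like cells (LPS + Reg3g to LPS, -1.70) ran from -1.73 to -0.96 within it.

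In alveolar-macrophage-like cells, the LPS to PBS ratio of Cxcl9 (2.52) was 3.71 with the doublet rate doubled, 2.78 with median-of-ratios scaling, 2.16 with cells weighted equally, 2.07 thinned to 2000 UMIs, 3.40 without the cell with most UMIs in each library and 2.18 over all cells. That of Cxcl10 (4.61) was 5.11, 4.86, 4.85, 5.07, 4.89 and 3.73 in the same order, and 4.84 with trimmed mean scaling. The LPS + Reg3g to LPS ratio of Cxcl9 (-1.01) was -1.16 with the doublet rate doubled, -0.82 thinned and -0.59 over all cells. That of Cxcl10 (-0.55) was -0.62 weighted equally, -0.65 thinned and -0.056 over all cells. In monocyte-like cells, the LPS to PBS ratio of Cxcl9 (2.73) was 3.57 thinned. The LPS + Reg3g to LPS ratio of Cxcl9 (0.65) was 0.85 with no cell filter, 0.88 with a stricter one, 0.20 weighted equally and 0.86 thinned. That of Cxcl10 (0.38) was 0.44 with each library clustered alone, 0.21 weighted equally and 0.28 thinned. The cause of these shifts was not tested.

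With no minimum on CPM, the shares of genes past 2-fold higher and lower were 10.7% and 12.7% for LPS + Reg3g against LPS in alveolar-macrophage-like cells and 12.9% and 9.96% in monocyte-like cells; for LPS against PBS, 14.2% and 25.2% in the former, and 30.9% lower in the latter. With a minimum of 50 CPM, no gene was past 2-fold higher with Reg3g in either class, and 0.0321% were lower in monocyte-like cells. With a minimum of 100 cells per pair, 1, 2 and 3 of the 5 genes most like Cxcl9, Cxcl10 and Cxcl11 were shared. Sparse counts limit Cxcl11 in every class and Cxcl9 in the PBS library.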

Other observations

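An unnamed cluster of 147 LPS and 145 LPS + Reg3g cells, with a median doublet score of 0.195, had Cxcl9 among its leading genes, beside Hbb-bs, Fstl1 and Ccl5. Its Cxcl9 level was 162 CPM in LPS and 25.3 CPM in LPS + Reg3g, and its Cxcl10 level 247 and 103 CPM. In LPS, the unnamed cells held 194 of the library's 2027 Cxcl9 UMIs (9.57%) with 1.84% of its cells. They enter no class above.

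Il12b, the gene of a subunit of interleukin 12, a cytokine that induces interferon gamma, was highest in migratory-DC-like cells, at 982, 461 and 575 CPM in PBS, LPS and LPS + Reg3g. In cDC1-like cells it stood at 119, 205 and 77.3 CPM. The lowest of these levels came from 33 UMIs in 67 cells.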
